A study of Mus musculus with 15 samples.

Results

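The platelet-derived growth factor (PDGF) family consists of 4 ligand genes, Pdgfa, Pdgfb, Pdgfc and Pdgfd, and 2 receptor genes, Pdgfra and Pdgfrb. All 6 were chosen by name and were found among the 54232 genes measured in mouse brain tumours in which PDGFA itself was the injected driver. Tumours arose in C57BL/6 mice of the Nestin Tv-a line, in which the Nestin promoter places the receptor for RCAS avian viruses on neural progenitors. Chicken DF-1 cells that shed RCAS-Cre, RCAS-PDGFA and an RCAS virus for histone H3.3 fused to GFP were injected into the cortex, and tumour tissue was taken from the frontal cortex when mice reached a functional end point. Every mouse carried p53 fl/fl, so Cre, PDGFA and loss of p53 are shared by all groups. The groups were tumours with ATRX fl/fl and RCAS-H3.3G34R-GFP (ATRXfl_G34R, n = 4), with ATRX fl/fl and RCAS-H3.3WT-GFP (ATRXfl_WT, n = 4), without a floxed Atrx and with RCAS-H3.3G34R-GFP (p53_G34R, n = 3), and without a floxed Atrx and with RCAS-H3.3WT-GFP (p53_WT, n = 4). Ages of the mice are not given in the labels. No label says that each library came from its own mouse, so p-values measure the spread between these libraries, and 3 pairs of libraries share the leading code of their titles (ATRXfl_G34R replicates 1 and 4, p53_G34R replicates 2 and 3, p53_WT replicates 3 and 4).

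PDGFs are secreted dimers that activate receptor tyrosine kinases. The PDGF-A and PDGF-C chains act through PDGFRα, PDGF-B binds both receptors, and PDGF-D acts mainly through PDGFRβ; PDGF-C and PDGF-D are secreted as latent forms that need proteolytic cleavage. In the brain, PDGFRα marks oligodendrocyte progenitors, for which PDGF-A is a mitogen, while PDGFRβ marks pericytes, which are recruited to vessels by endothelial PDGF-B. PDGFRA is often altered and highly expressed in human gliomas with H3.3 G34 mutations.

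Positions are whole gene spans of GENCODE vM21 on mm10. Pdgfa (ENSMUSG00000025856) spans chromosome 5 from 138976014 to 138997370 on the minus strand, and Pdgfra (ENSMUSG00000029231) lies on the same chromosome from 75152292 to 75198215 on the plus strand. Pdgfb (ENSMUSG00000000489) spans chromosome 15 from 79995874 to 80014977 (minus), Pdgfc (ENSMUSG00000028019) chromosome 3 from 81036416 to 81214040 (plus) and Pdgfd (ENSMUSG00000032006) chromosome 9 from 6168584 to 6378850 (plus). Counts were taken over whole genes. The labels do not give the species or extent of the PDGFA insert, so reads filed under Pdgfa from the virus and from the mouse gene cannot be told apart.

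Promoter windows of 300 bases were read from RefSeq (GRCm38.p6) for all members except Pdgfrb, which was not looked up. RefSeq held 1 or more windows for 4 of these genes, all but Pdgfb. Those of Pdgfra, Pdgfa and Pdgfd are shown because the first pair is set against each other below and Pdgfd was the sole member with a call. Capitals mark a GC box (GGGCGG, or CCGCCC on the other strand) or a TATA box (TATAAA, or TTTATA on the other strand), and each window runs 5′ to 3′ along the gene's strand. They are mm10 chr5:75152001-75152300 (plus) for Pdgfra, chr5:138994895-138995194 (minus) for 1 of 2 Pdgfa windows, and chr9:6168236-6168535 (plus) for Pdgfd.
Pdgfra promoter: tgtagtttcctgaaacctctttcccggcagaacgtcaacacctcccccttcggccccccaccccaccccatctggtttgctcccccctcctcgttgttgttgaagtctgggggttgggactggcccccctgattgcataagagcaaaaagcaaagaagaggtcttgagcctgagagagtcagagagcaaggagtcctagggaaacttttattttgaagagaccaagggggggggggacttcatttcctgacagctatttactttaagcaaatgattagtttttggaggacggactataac
Pdgfa promoter: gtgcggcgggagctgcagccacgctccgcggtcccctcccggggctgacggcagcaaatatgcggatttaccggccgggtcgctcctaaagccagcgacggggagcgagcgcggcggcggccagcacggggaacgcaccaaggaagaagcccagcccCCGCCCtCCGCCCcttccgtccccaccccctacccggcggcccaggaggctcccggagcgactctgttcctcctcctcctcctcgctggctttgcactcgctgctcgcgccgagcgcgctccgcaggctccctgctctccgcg
Pdgfd promoter: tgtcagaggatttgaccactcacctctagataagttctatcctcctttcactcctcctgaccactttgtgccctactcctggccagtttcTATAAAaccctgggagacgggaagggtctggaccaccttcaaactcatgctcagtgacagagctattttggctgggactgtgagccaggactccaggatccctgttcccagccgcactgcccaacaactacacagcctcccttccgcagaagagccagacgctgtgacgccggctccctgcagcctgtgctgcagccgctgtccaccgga
The Pdgfa window held 2 GC boxes and 37 CpG dinucleotides. The Pdgfra window held neither motif and 5 CpG dinucleotides, and the Pdgfd window held 1 TATA box and 8 CpG dinucleotides. Of 32851 windows of the same length, 35.7% held a GC box and 13.6% a TATA box, and the median number of CpG dinucleotides was 7.

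Libraries held 22807315 to 35679129 reads in genes. Atrx, the gene targeted in the floxed mice, was lower in floxed than in intact tumours (log2 change -1.50, SE 0.20, limma adjusted p = 0.00559), and the floxed tumours, at 3124 normalized counts or fewer, all lay below the intact ones, at 5143 or more. A library stood apart for each receptor. In p53_WT replicate 3 the summed count of 14 oligodendrocyte progenitor markers was 38912, against 190537 to 553360 in the other libraries, and that of 11 mature neuron markers was 320184, against 1018 to 29092. The same library was the highest for astrocyte (262891, next 76701), mature oligodendrocyte (113730, next 102841) and microglia and macrophage markers (46222, next 26717). In ATRXfl_WT replicate 1 the summed count of 12 pericyte and smooth muscle markers was 106274, against 4460 to 22005 elsewhere, and that of 12 endothelial markers was 99670, against 9285 to 26687, and its fibroblast marker sum was also the highest (45969, next 29631). Of all 86 marker genes, Gad2 alone was at 0 in any library. In such bulk tissue, fewer cells of a type and less RNA per cell cannot be told apart. Member changes whose direction turned without one of these 2 libraries are given with and without it.

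Pdgfa and Pdgfra were among the most abundant messages of these tumours, and the other 4 genes were far lower. Levels of different genes are compared here per length, as TPM computed from the reads and the union exon length of each gene. The median TPM over 15 libraries was 1409 for Pdgfra, 1117 for Pdgfa, 52.9 for Pdgfrb, 38.9 for Pdgfb, 8.56 for Pdgfc and 3.09 for Pdgfd. Pdgfra exceeded Pdgfa in 10 of 15 libraries, so the order of these neighbours was not constant. Pdgfa exceeded Pdgfrb in 13, Pdgfrb exceeded Pdgfb in 14, Pdgfb exceeded Pdgfc in all 15 and Pdgfc exceeded Pdgfd in 14. At the median, Pdgfa was 28.7 times Pdgfb, 130 times Pdgfc and 361 times Pdgfd, and Pdgfra was 26.6 times Pdgfrb. These ratios take the annotated exon length of Pdgfa, which the viral message need not have. Counting reads without regard to length, Pdgfra had the most reads of any gene in 6 libraries and was among the first 10 genes in 13. It took up to 0.485% of all reads in genes, and Pdgfa up to 0.224%.

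**Figure D1:**
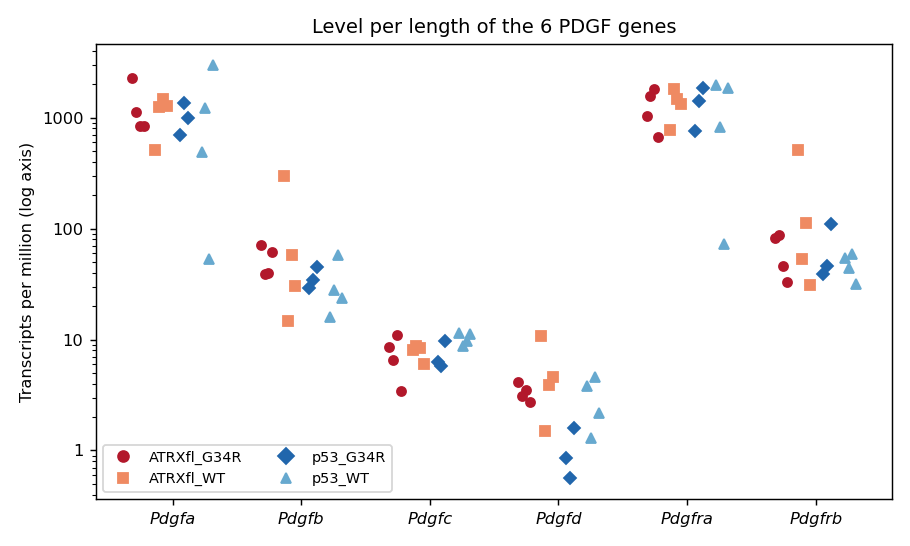
Level per length of each PDGF gene in TPM (log axis) in 15 libraries, 1 point per library, by group. Pdgfra and Pdgfa lie at 490 or more except in 1 p53_WT library (72.6 and 52.8), Pdgfrb and Pdgfb lie between 14.6 and 112 except in 1 ATRXfl_WT library (511 and 297), and Pdgfc and Pdgfd at or below 11.3.

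Pdgfa, the ligand supplied by the virus, stood at 45496, 23598, 16323 and 20778 size-factor-normalized counts in ATRXfl_G34R tumours and at 12198, 26394, 28476 and 26085 in ATRXfl_WT tumours. It stood at 16105, 26701 and 18861 in p53_G34R tumours and at 10267, 23885, 1239 and 58931 in p53_WT tumours. The p53_WT tumours held both the lowest and the highest value of the series, in replicates 3 and 4, and the ranges of all 4 groups overlapped. Without p53_WT replicate 3, Pdgfa ran from 10267 to 58931.

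Pdgfb, the ligand released by endothelial cells, stood at 1897, 1097, 1026 and 2022 normalized counts in ATRXfl_G34R tumours and at 9465, 416, 1491 and 837 in ATRXfl_WT tumours. It stood at 900, 901 and 1140 in p53_G34R tumours and at 444, 730, 1816 and 622 in p53_WT tumours. ATRXfl_WT replicate 1 held the highest value, and another library of the same group, replicate 2, the lowest. Leaving out ATRXfl_WT replicate 1, the highest value was 2022.

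Pdgfc, the ligand activated by tissue plasminogen activator, stood at 281, 225, 348 and 140 normalized counts in ATRXfl_G34R tumours, at 313, 307, 269 and 203 in ATRXfl_WT tumours, at 237, 188 and 299 in p53_G34R tumours and at 387, 279, 372 and 358 in p53_WT tumours. The highest and lowest libraries differed by 2.77-fold, the smallest span of the 6 genes over all libraries; without p53_WT replicate 3 that of Pdgfra was smaller, at 2.55-fold. The 4 groups overlapped. Neither library that stood apart in its markers was the highest or the lowest for Pdgfc.

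Pdgfd, the ligand of PDGFRβ, was the lowest member. It stood at 84.5, 66.1, 68.1 and 68.7 normalized counts in ATRXfl_G34R tumours and at 258, 32.7, 77.5 and 95.6 in ATRXfl_WT tumours. It stood at 19.7, 11.2 and 31.1 in p53_G34R tumours and at 80.3, 25.5, 109 and 43.6 in p53_WT tumours. Every ATRXfl_G34R tumour lay above every p53_G34R tumour, while the p53_WT tumours overlapped both. These values rest on 13 to 264 reads per library.

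Pdgfra, the receptor of PDGF-A, stood at 66616, 105663, 113406 and 53836 normalized counts in ATRXfl_G34R tumours and at 59249, 125441, 91245 and 87468 in ATRXfl_WT tumours. It stood at 55408, 89526 and 113920 in p53_G34R tumours and at 133069, 52093, 5471 and 117208 in p53_WT tumours. The low value was p53_WT replicate 3, the library poor in oligodendrocyte progenitor markers, and the other 14 libraries ran from 52093 to 133069. The medians of the 4 groups lay between 84651 and 89526, with overlapping ranges.

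Pdgfrb (ENSMUSG00000024620; mm10 chromosome 18 from 61045150 to 61085061, plus strand), the pericyte receptor, stood at 2904, 3264, 1567 and 1430 normalized counts in ATRXfl_G34R tumours and at 21450, 1988, 3839 and 1129 in ATRXfl_WT tumours. It stood at 1577, 1592 and 3705 in p53_G34R tumours and at 1980, 1532, 2428 and 1092 in p53_WT tumours. The high value was ATRXfl_WT replicate 1, the library rich in pericyte and endothelial markers. The other 14 libraries ran from 1092 to 3839, and the groups overlapped with or without it.

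**Figure D2:**
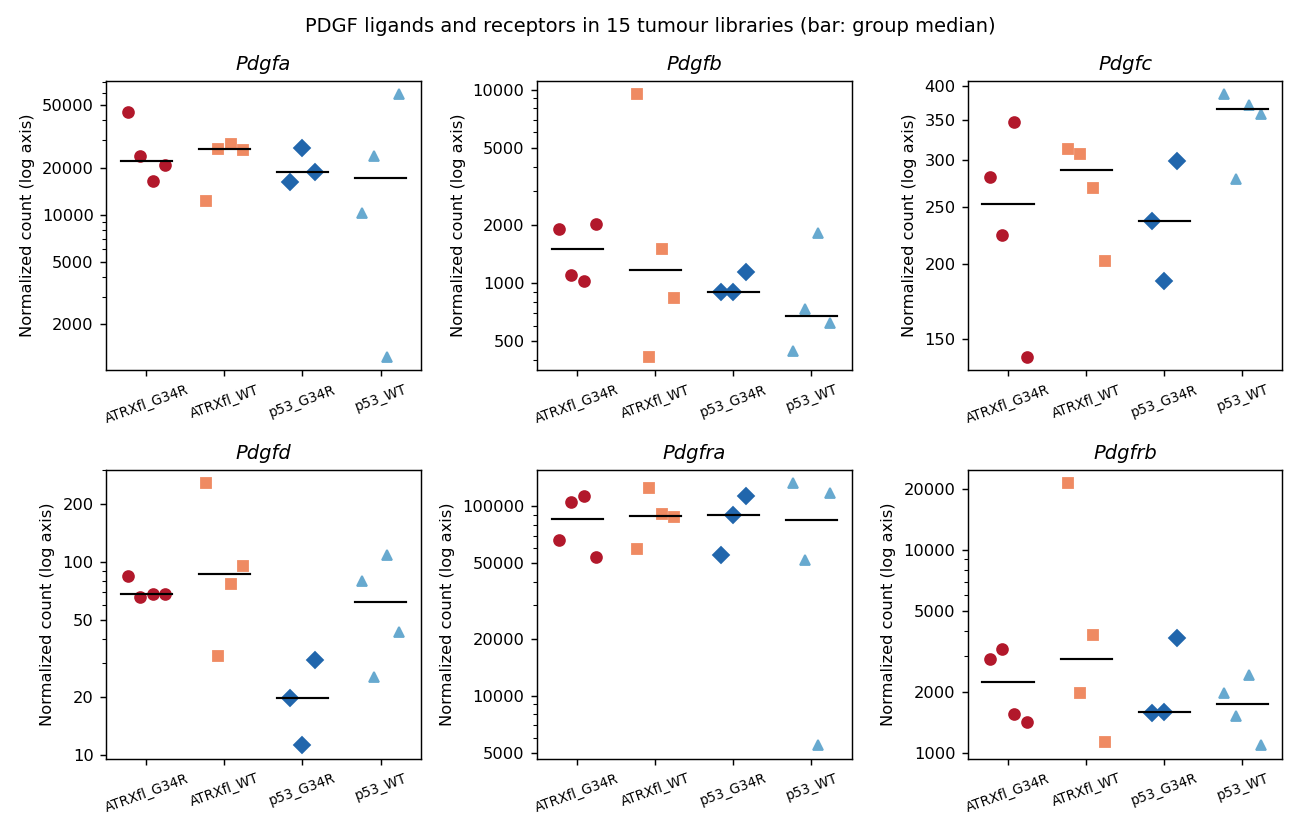
Size-factor-normalized count (log axis) of each PDGF gene in 15 libraries by group, with a bar at each group median. In the 5 pairs compared, groups overlap in each panel except for ATRXfl_G34R (66.1 to 84.5) above p53_G34R (11.2 to 31.1) in Pdgfd. In that pair 4.64% of all genes did not overlap. ATRXfl_WT (32.7 to 258) also lies narrowly above p53_G34R in Pdgfd, a pair for which no share over all genes was computed. The single low p53_WT point of Pdgfa and Pdgfra is the same library.

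Whether the injected ligand and its receptor varied together was examined across the 15 libraries on the log2 scale (normalized count plus 1). Pearson's r was 0.79 (permutation p = 0.0286; 0.131 adjusted by Benjamini-Hochberg over the 15 pairs of members), and Spearman's rho was 0.23 (permutation p = 0.413; adjusted 0.600). The relation rested on 1 tumour. Without p53_WT replicate 3, r was 0.06 (permutation p = 0.850) and rho 0.05. Without the pair of libraries farthest from the median of Pdgfa, p53_WT replicates 3 and 4, r was -0.13 (permutation p = 0.677). Groups of 3 or 4 are too small for an r of their own, and over deviations from the group means r was 0.77 with every library kept. The high Pdgfa of p53_WT replicate 4 (58931) and of ATRXfl_G34R replicate 1 (45496) came with Pdgfra at 117208 and 66616, and the highest Pdgfra, 133069 in p53_WT replicate 1, came with a Pdgfa of 10267, the lowest but that of p53_WT replicate 3. In p53_WT replicate 3, the library at 5471 for Pdgfra and 1239 for Pdgfa, mature neuron, astrocyte, mature oligodendrocyte and microglia transcripts were at their highest, as given above, and their part in these values was not tested.

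**Figure D3:**
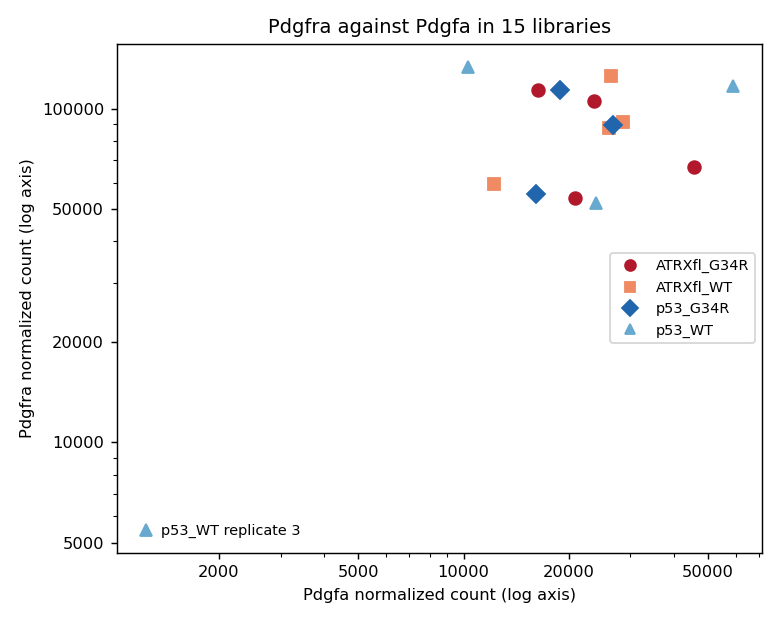
Pdgfra against Pdgfa as normalized counts (log axes), 1 point per library, by group. p53_WT replicate 3 lies alone at the lower left (1239 and 5471), and the other 14 points show no common slope (r = 0.06).

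Of the other 14 pairs of members, none passed after adjustment. Pdgfb and Pdgfrb had r = 0.78 (permutation p = 0.00664, adjusted 0.0996) and rho = 0.50 (adjusted permutation p = 0.378), and r was 0.38 without ATRXfl_WT replicate 1. Pdgfb and Pdgfd had r = 0.62 (permutation p = 0.0152, adjusted 0.114), and rho = 0.47 (adjusted permutation p = 0.378), and r was 0.32 without the libraries farthest from the median of Pdgfb, ATRXfl_WT replicates 1 and 2.

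The members were also set against the summed counts of 8 marker lists, 48 relations in all, a step added after the values were seen. Pdgfrb followed the pericyte and smooth muscle sum most closely, with r = 0.94 (adjusted permutation p = 0.00048) and rho = 0.81 (adjusted permutation p = 0.0150). The relation held without both libraries that stood apart (r = 0.84, adjusted permutation p = 0.0182), and without the 2 libraries farthest from the median of Pdgfrb r was 0.81. Pdgfrb also followed the endothelial sum (r = 0.93, adjusted permutation p = 0.0024; rho = 0.78, adjusted 0.0150; r = 0.80, adjusted 0.0293, without both libraries). Pdgfb followed the endothelial sum (r = 0.88, adjusted permutation p = 0.00464; rho = 0.79, adjusted 0.0150), but without ATRXfl_WT replicate 1 its r of 0.68 had an adjusted permutation p of 0.0578; without the 2 libraries farthest from the median of Pdgfb r was 0.75. Pdgfd and the pericyte sum had r = 0.72 (adjusted permutation p = 0.0177), which was 0.55 (adjusted 0.188) without ATRXfl_WT replicate 1 and 0.36 without the 2 libraries farthest from the median of Pdgfd, and rho = 0.53 (adjusted 0.196). Pdgfb and the pericyte sum had r = 0.81 (adjusted permutation p = 0.0177), which was 0.51 (adjusted 0.194) without ATRXfl_WT replicate 1, and rho = 0.57 (adjusted 0.170).

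Pdgfra and the oligodendrocyte progenitor sum had r = 0.91 (adjusted permutation p = 0.0177) and rho = 0.54 (adjusted 0.184), but r was 0.52 (adjusted 0.246) without p53_WT replicate 3 and 0.57 without p53_WT replicates 2 and 3, the libraries farthest from the median of Pdgfra. Pdgfa was inversely related to the mature oligodendrocyte sum (r = -0.70, adjusted permutation p = 0.0217; rho = -0.72, adjusted 0.0425) and to the microglia and macrophage sum (r = -0.71, adjusted 0.0202; rho = -0.70, adjusted 0.0485). Pdgfra had r = -0.75 (adjusted permutation p = 0.0110) and rho = -0.57 (adjusted 0.170) with the microglia and macrophage sum. Without p53_WT replicate 3 these 3 values of r were -0.47 (adjusted permutation p = 0.356), -0.45 (adjusted 0.356) and -0.59 (adjusted 0.164), and without the 2 libraries farthest from the member's median they were -0.43, -0.51 and -0.52. With p53_WT replicate 3 left out, rho of Pdgfa was -0.66 with the mature oligodendrocyte sum (unadjusted permutation p = 0.0131) and -0.63 with the microglia and macrophage sum (unadjusted permutation p = 0.0189), and rho of Pdgfra with the microglia and macrophage sum was -0.47 (unadjusted permutation p = 0.0949). Pdgfc passed with none of the 8 sums, its largest r being 0.38 with astrocyte markers (adjusted permutation p = 0.344).

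**Figure D4:**
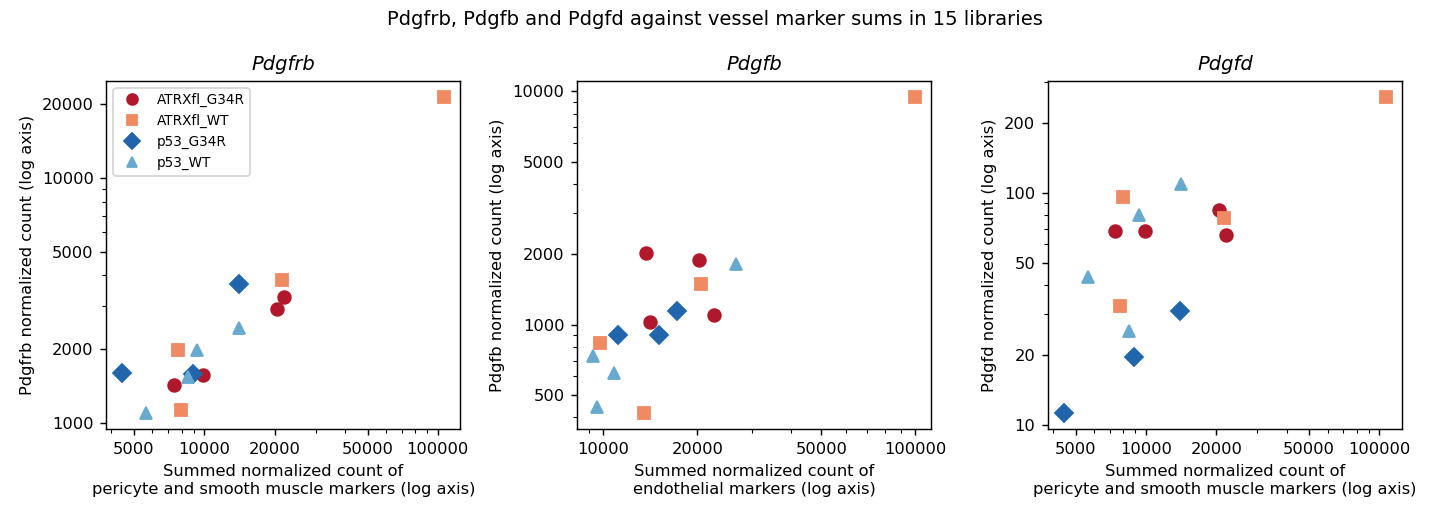
Normalized counts of Pdgfrb, Pdgfb and Pdgfd (log axes) against the summed normalized counts of pericyte and smooth muscle markers (left and right panels) or endothelial markers (middle panel), 1 point per library. ATRXfl_WT replicate 1 lies at the upper right of each panel (106274 and 99670 on the horizontal axes), and the remaining Pdgfrb points keep a slope.

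Loss of Atrx and the mutant histone were compared next to ask whether either moved the PDGF genes. With limma on log2(normalized count + 1), no member passed an adjusted p under 0.05 in any of the 5 pairs of groups, in the interaction, or in either effect averaged over the other factor, and edgeR also called 0 members. The calls were few over all genes too: limma called 0.0229% of genes between ATRXfl_G34R and p53_G34R, 0.0335% between ATRXfl_WT and p53_WT, 0.0227% between ATRXfl_G34R and p53_WT, 0.0956% for floxed against intact tumours and 0 in the other comparisons. edgeR called 0.0112% of genes between ATRXfl_WT and p53_WT, 0.0113% between ATRXfl_G34R and p53_WT, 0.0731% for floxed against intact tumours and 0 otherwise. Unadjusted limma p-values were under 0.05 for Pdgfd in 3 comparisons and for no other member. Over all genes the share under 0.05 was 2.79% for ATRXfl_G34R minus ATRXfl_WT, 1.47% for p53_G34R minus p53_WT, 3.39% for ATRXfl_G34R minus p53_G34R, 3.76% for ATRXfl_WT minus p53_WT and 4.37% for ATRXfl_G34R minus p53_WT. It was 2.05% for the interaction, 4.87% for floxed minus intact and 2.15% for H3.3G34R minus H3.3WT. DESeq2 on the recovered reads called 1 member in 1 comparison, Pdgfd between ATRXfl_G34R and p53_G34R, where it called 0.538% of all genes. In the other comparisons it called 0 members, and of all genes 0.182% (ATRXfl_G34R minus ATRXfl_WT), 0.0578% (p53_G34R minus p53_WT), 0.352% (ATRXfl_WT minus p53_WT), 0.38% (ATRXfl_G34R minus p53_WT), 0.0416% (interaction), 0.472% (floxed minus intact) and 0.0564% (H3.3G34R minus H3.3WT). The groups of a pair did not overlap for 1 member in ATRXfl_G34R minus p53_G34R (4.64% of all genes) and for 0 members in the other pairs, against 2.16%, 2.61%, 2.65% and 2.94% of all genes in ATRXfl_G34R minus ATRXfl_WT, p53_G34R minus p53_WT, ATRXfl_WT minus p53_WT and ATRXfl_G34R minus p53_WT. No member separated all floxed from all intact tumours (0.135% of all genes did) or all H3.3G34R from all H3.3WT tumours (0.0113%). Comparisons that use the same group share its libraries.

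Between ATRXfl_G34R and p53_G34R, Pdgfd was 71.9 ± 8.52 normalized counts (SD, n = 4) against 20.7 ± 9.94 (SD, n = 3), a log2 change of 1.85 (SE 0.45, 95% interval 0.82 to 2.87, limma unadjusted p = 0.00303, adjusted p = 0.989). In the authors' deposited table the log2 change was 1.80 (SE 0.45) with a DESeq2 adjusted p of 0.0204, past the threshold, as were 0.372% of the genes tested there in this direction. The DESeq2 call on the recovered reads was lost when any 1 library other than p53_G34R replicate 3 was left out (adjusted p = 0.0597 to 0.250; 0.00508 without p53_G34R replicate 3), while the log2 change in those fits was 1.49 to 1.83, and 2.23 without p53_G34R replicate 3. All ATRXfl_G34R tumours lay above all p53_G34R tumours for 2.34% of all genes. Pericyte sums were 20531, 22005, 9891 and 7398 in these ATRXfl_G34R tumours and 8906, 4460 and 14037 in the p53_G34R tumours. Fibroblast marker sums were 5770, 9401, 4211 and 14646 in the ATRXfl_G34R tumours, each below the 26584, 17764 and 29631 of the p53_G34R tumours, and ATRXfl_G34R replicate 3 had a mature neuron sum of 29092. Without that replicate the limma log2 change was 1.87. The part of the pericyte and fibroblast transcripts in this difference was not tested.

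For the same pair, Pdgfa, Pdgfb, Pdgfc, Pdgfra and Pdgfrb had log2 changes of 0.29, 0.56, -0.01, -0.03 and 0.03. The 95% interval of Pdgfra ran from -0.89 to 0.82 and that of Pdgfa from -0.56 to 1.14; changes of that size in either direction lie within them.

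Between ATRXfl_WT and p53_WT, all members but Pdgfc had positive log2 changes (Pdgfa 0.93, Pdgfb 0.93, Pdgfd 0.66, Pdgfra 0.93, Pdgfrb 1.12; Pdgfc -0.37), none past the threshold (limma adjusted p = 0.975 each). Pdgfa became -0.15 and Pdgfra -0.10 when p53_WT replicate 3 was left out, and Pdgfb became 0.04, Pdgfd 0.15 and Pdgfrb 0.28 when ATRXfl_WT replicate 1 was left out. In the authors' deposited table Pdgfrb had a log2 change of 2.01 (SE 0.83, DESeq2 adjusted p = 0.458) and Pdgfb of 1.75 (SE 0.90, DESeq2 adjusted p = 0.686). Averaged over histones, floxed minus intact tumours had a log2 change of 1.26 for Pdgfd (SE 0.44, limma unadjusted p = 0.0120, adjusted p = 0.839) and of 0.61, 0.75, -0.19, 0.45 and 0.58 for Pdgfa, Pdgfb, Pdgfc, Pdgfra and Pdgfrb. Without p53_WT replicate 3 those of Pdgfa and Pdgfra were 0.08 and -0.06, and without ATRXfl_WT replicate 1 those of Pdgfb and Pdgfrb were 0.31 and 0.16.

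For the histone, ATRXfl_G34R minus ATRXfl_WT gave log2 changes of 0.16 for Pdgfa, -0.04 for Pdgfb, -0.19 for Pdgfc, -0.31 for Pdgfd, -0.11 for Pdgfra and -0.77 for Pdgfrb (limma adjusted p = 0.9997 each). Leaving out ATRXfl_WT replicate 1 turned the direction of 4 of the 6, giving -0.13 for Pdgfa, 0.85 for Pdgfb, 0.20 for Pdgfd and 0.07 for Pdgfrb. Between p53_G34R and p53_WT tumours, Pdgfd was 20.7 ± 9.94 (SD, n = 3) against 64.5 ± 37.2 (SD, n = 4), a log2 change of -1.50 (SE 0.65, limma unadjusted p = 0.04999, adjusted p = 0.99999), which was -1.19 without p53_WT replicate 3. Pdgfc had -0.54 (SE 0.33), and Pdgfa and Pdgfra had 0.80 and 0.85, which were -0.28 and -0.18 without p53_WT replicate 3. Averaged over Atrx states, H3.3G34R minus H3.3WT gave 0.47, 0.14, -0.37, -0.91, 0.37 and -0.23 for Pdgfa, Pdgfb, Pdgfc, Pdgfd, Pdgfra and Pdgfrb, and the largest of these, for Pdgfd, had SE 0.44 (limma unadjusted p = 0.0562, adjusted p = 0.9999). The value of Pdgfa was -0.06 and that of Pdgfra -0.15 without p53_WT replicate 3, and without ATRXfl_WT replicate 1 that of Pdgfb was 0.58 and that of Pdgfrb 0.19.

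The effect of the histone was not shown to differ with Atrx status for any member. The interaction was 1.19 for Pdgfd (SE 0.88), -1.10 for Pdgfrb (SE 1.01) and -0.96 for Pdgfra (SE 1.12), with a limma adjusted p of 0.9996 for all members. Without p53_WT replicate 3 the value of Pdgfra was 0.06, and that of Pdgfa was 0.43 against -0.64 with it. Without ATRXfl_WT replicate 1 the value of Pdgfrb was -0.25, and that of Pdgfb was 0.52 against -0.37 with it. Tumours carrying both changes were also set against those with neither: between ATRXfl_G34R and p53_WT the log2 change was 1.09 for Pdgfa (0.01 without p53_WT replicate 3), 0.89 for Pdgfb, -0.55 for Pdgfc, 0.35 for Pdgfd, 0.82 for Pdgfra (-0.21 without that library) and 0.35 for Pdgfrb (limma adjusted p = 0.999 each).

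**Figure D5:**
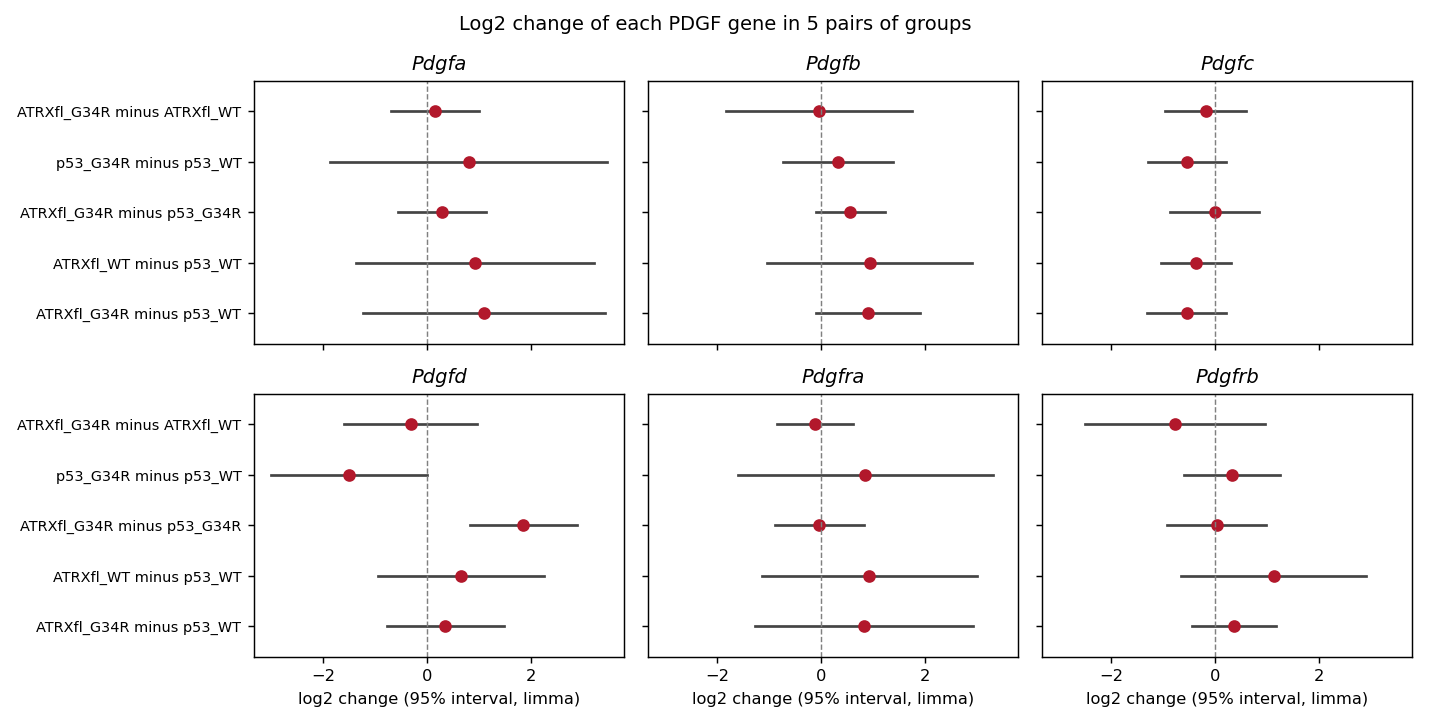
Log2 change (point) with its 95% limma interval (line) for each PDGF gene in 5 pairs of groups. The intervals cross 0 except for Pdgfd in ATRXfl_G34R minus p53_G34R (1.85, from 0.82 to 2.87) and, barely, in p53_G34R minus p53_WT (-1.50), and neither passed adjustment over all genes.

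The rest of the pathway was read from 8 lists of 108 genes: other PDGF and VEGF family ligands, related receptor kinases, the proteases and coreceptors that act on PDGFs, adaptors and effectors at the receptor, negative regulators, genes induced by receptor kinase and MAPK signalling, genomic neighbours of Pdgfra, and ventral forebrain genes linked to PDGFRA in human G34-mutant glioma. In 8 comparisons limma, edgeR and DESeq2 each called 0 of them, and 31 of 848 limma tests (3.66%) had an unadjusted p under 0.05. The adaptors and effectors were divided evenly, with 18 of 36 positive in ATRXfl_G34R minus p53_WT and a median log2 change of 0.02, beside -0.01 over all genes.

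In the comparisons given next, genes induced by receptor kinase and MAPK signalling mostly had positive log2 changes, none of them called. The other comparisons of this list with all libraries kept are not reported here. In ATRXfl_G34R minus p53_WT 16 of 17 were positive, with a median of 1.01. In ATRXfl_G34R minus ATRXfl_WT 15 of 17 were positive (median 0.58), and in ATRXfl_WT minus p53_WT 15 of 17 (median 0.52), where 49.2% to 49.9% of all genes were positive. Without p53_WT replicate 3, a setting added after the values were seen, 13 of 17 were positive in ATRXfl_G34R minus p53_WT (median 0.9998). In that setting 10 of 17 were positive in ATRXfl_WT minus p53_WT (median 0.14), fewer than with that library. For p53_G34R minus p53_WT it was 9 of 17 (median 0.08), beside 49.8% of all genes. Values of this list with other libraries left out are not given here. Markers of other cells also leaned to one direction in the comparisons named first, though limma called 0 marker genes in any comparison. In ATRXfl_G34R minus ATRXfl_WT, 11 of 11 mature neuron markers (median 2.02) and 10 of 10 mature oligodendrocyte markers (median 0.64) were positive. DESeq2 called Gad2 and Stmn2 there, and 0.182% of all genes. ATRXfl_G34R replicate 3 held sums of 29092 and 102841 for these lists, against 2741 to 4080 and 11538 to 52714 in the rest of its group. In ATRXfl_WT minus p53_WT, 0 of 11 mature neuron markers (median -3.10) and 2 of 9 astrocyte markers (median -0.75) were positive, and 11 of 12 endothelial markers (median 0.76). The p53_WT values include replicate 3, with a neuron sum of 320184 and an astrocyte sum of 262891. The other p53_WT libraries held 1018 to 6234 and 33358 to 43142, beside 1562 to 3223 and 29109 to 45141 in ATRXfl_WT tumours. In ATRXfl_G34R minus p53_WT, 3 of 11 mature neuron markers (median -0.32) and 10 of 12 endothelial markers (median 0.42) were positive. Their part in the list's values was not tested. Jun, a subunit of the AP-1 transcription factor, stood at 10564, 16754, 5448 and 18092 normalized counts in ATRXfl_G34R tumours and at 4768, 3330, 4323 and 7027 in p53_WT tumours. Its log2 change was 1.30 (SE 0.41, limma unadjusted p = 0.0115, adjusted p = 0.999), and the groups overlapped. Fosl2, Fos and Ier3, immediate early genes, had log2 changes of 1.97 (SE 0.76), 1.78 (SE 0.74) and 1.36 (SE 0.60) in that comparison. Etv4, a factor induced by MAPK signalling, had 0.70 (SE 0.86), and stood at 610 normalized counts in p53_WT replicate 3 and at 3501 or more in every other library.

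Of the proteases and coreceptors, 0 of 10 passed in any comparison. Furin, which cleaves PDGF precursors, had a log2 change of 0.48 (SE 0.25) between ATRXfl_G34R and p53_WT tumours, and Plat, the protease that activates PDGF-C, had 0.29 (SE 0.21). Among negative regulators, Errfi1, an inhibitor of EGF receptor signalling, had 1.56 (SE 0.59, limma unadjusted p = 0.0265, adjusted p = 0.999) in the same comparison. Between ATRXfl_G34R and p53_G34R tumours Vegfc, a lymphatic growth factor, stood at 93.3, 77.2, 95.8 and 74.8 against 40.5, 44.1 and 27.5 normalized counts, a log2 change of 1.18 (SE 0.37, limma unadjusted p = 0.0118, adjusted p = 0.9999). These groups did not overlap for Vegfc, nor did they for 4.64% of all genes, 2.34% in this direction. Vegfc stood at 45.6 to 235 in ATRXfl_WT tumours and at 19.1 to 129 in p53_WT tumours.

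The 8 neighbours of Pdgfra on chromosome 5 passed in no comparison. Lnx1, which lies near Pdgfra, stood at 1748, 2548, 3375 and 1960 normalized counts in ATRXfl_G34R tumours and at 2097, 960, 740 and 1708 in p53_WT tumours, a log2 change of 0.89 (SE 0.37, limma unadjusted p = 0.0404, adjusted p = 0.999). Kit, a receptor kinase encoded beside Pdgfra, ranged from 1493 to 2543 in ATRXfl_G34R tumours, from 1979 to 5326 in ATRXfl_WT tumours, from 1906 to 3810 in p53_G34R tumours and from 1185 to 4296 in p53_WT tumours. Of the ventral forebrain genes, Dlx5 and Dlx6 had log2 changes of -3.70 (SE 1.69) and -3.21 (SE 1.44) in ATRXfl_G34R minus p53_WT, neither past the threshold (limma adjusted p = 0.999 each). Both groups held libraries with few reads of these genes. Dlx6 stood at 1.94, 4.07, 73.1 and 2.41 normalized counts in ATRXfl_G34R tumours and at 171, 112, 280 and 4.15 in p53_WT tumours.

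Over the 15 libraries, 13052 protein-coding genes with a mean of at least 50 normalized counts were ranked by Pearson's r with each member, as a description without a test. The libraries share the scaling and the tissue differences given above. Nearest to Pdgfa were Cdkn2b (0.95), Knop1 (0.93), Cdkn2a (0.92), Antxr1 (0.92) and Eif2ak3 (0.91), which had r of 0.82, 0.77, 0.67, 0.70 and 0.64 without p53_WT replicate 3. Nearest to Pdgfra were Lhfpl3 (0.96), Etv4 (0.95), Abtb2 (0.95), Chd7 (0.94) and Aif1l (0.94), with r of 0.82, 0.77, 0.77, 0.73 and 0.62 without that library; Lhfpl3 is on the oligodendrocyte progenitor list and Etv4 on the list of MAPK-induced genes. Ranked without p53_WT replicate 3, neither gene kept any of these 5: nearest to Pdgfa were then Oxr1 (0.89), Atad1 (0.87), Rpp25 (0.85), Rorb (0.85) and Adrb1 (0.84), and nearest to Pdgfra were Pcdh17 (0.94), Kcna2 (0.93), Zmym2 (0.92), Adgrl3 (0.91) and Erbb4 (0.91).

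Nearest to Pdgfb were Grap (0.96), Acvrl1 (0.96), Icam2 (0.95), F11r (0.94) and N4bp3 (0.94), with r between 0.83 and 0.91 without ATRXfl_WT replicate 1. Among the nearest to Pdgfrb were Dock6 (0.96), Nid1 (0.95), Cgnl1 (0.95) and Tie1 (0.95), with r between 0.84 and 0.88 without that library, and Tie1 is on the endothelial list. Nearest to Pdgfd were Vtn (0.86), Foxq1 (0.83), Bcam (0.83), Arhgap6 (0.82) and Vegfc (0.81), of which Vtn is on the pericyte list. Without ATRXfl_WT replicate 1, which held the highest Pdgfd, these had r of 0.79, 0.77, 0.75, 0.81 and 0.74. Nearest to Pdgfc were Unkl (0.87), Ston1 (0.86), Fbxl5 (0.85), Rerg (0.81) and Pkd1 (0.81), all at 0.81 or more without either library.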

How the data were processed

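Per the labels' protocols, tumour RNA was purified on Qiagen RNeasy columns before TruSeq mRNA library preparation. The submitters' processing notes name STAR 2.7, HTSeq and DESeq2 with the mm10 build. Not given in the sources used here: settings, strand, annotation, and the versions of HTSeq and DESeq2. For each of 5 pairs of groups the authors deposited a table of 54232 genes. The library columns are a signal: gene read counts that the authors divided by the library's size factor; another deposited column averages it. The remaining columns are, per the file headers, DESeq2 results of the authors: the log2 fold change, its SE, the Wald score, and the p-value before and after adjustment. Every value was a whole number of reads within 0.01 (100%), so reads were recovered by division, without 3 columns in which 1 read was worth about 1. No label gives a sequencing batch.

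The design had named a count test only for raw counts, so the normalized values were tested with limma 3.58.1 (trend and robust) in R 4.3.3 on log2(value + 1), which understates the change of low genes. Each pair of groups was fitted on its own table over all genes whose mean reached 10, with calls below 0.05 after Benjamini-Hochberg adjustment. All 6 members passed that minimum. The interaction and averaged effects were fitted on all 15 libraries, scaled together by the median of ratios, as were values of single libraries, and SDs are of these. IDs were matched to GENCODE vM21 (54079 IDs, 99.7%), which may not be the authors' annotation, and TPM used its union exons. Correlations had 2-sided permutation p-values from 100000 resamples. Fits and relations were tested on simulated data. All 21 within-group pairs of libraries were compared, and no pair looked like 1 library sequenced again (smallest chi-square per degree of freedom 81.2).

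The members, the marker and pathway lists and the alternatives were chosen with earlier results of these data known. Of 191 listed genes, 190 were found. Genes named are the members, Atrx, the 5 genes nearest to each member (1 of those of Pdgfrb is not reported here; those of Pdgfa and Pdgfra also without p53_WT replicate 3, added after the data were seen), and up to 4 genes with the smallest p of a described list. Plat, Etv4 and Kit were named for their roles, after their values were seen. Alternatives were no filter, pseudocounts of 0.5 and 5, TMM scaling, DESeq2 1.42.0 and edgeR 4.0.16 quasi-likelihood on recovered reads, 1 fit of all groups, libraries of one title code summed, each library left out, and 2 libraries rich in cortex transcripts left out. DESeq2 with each library left out, and the MAPK-induced list without p53_WT replicate 3, were added after the data were seen.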

Additional observations from a re-analysis of the deposited data

Results flagged for a closer look

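In groups of 4 libraries, a library was singled out when its gap to the nearest other one exceeded 0.829 of the group's range. Of 18 groups tested, 4 held such a library. The cut-off gives about 1 in 20 only for independent, normally distributed values. These were unlogged counts of genes measured in the same libraries, so the 4 cannot be weighed against chance. In ATRXfl_WT replicate 1, Pdgfa was low at 12197.8 normalized counts (the nearest other library held 26085), Pdgfb was high at 9465.31 (nearest 1491) and Pdgfrb was high at 21450 (nearest 3839). The pericyte and endothelial sums of that library were 106274 and 99670. In ATRXfl_G34R replicate 1, Pdgfd was high at 84.5312 (nearest 68.7), a gap of 0.856 of a narrow range.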

How the results depend on the processing

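No paired analysis was possible because the labels give no replicate numbers and the numbers used here only name libraries. Of 919 values of member log2 changes under alternatives, 893 stayed on their side of the threshold and moved by less than the SE, 24 moved by more and 2 passed the threshold, both Pdgfd between ATRXfl_G34R and p53_G34R with DESeq2 (1.80 with all libraries, 2.23 without p53_G34R replicate 3). With DESeq2 1 PDGF gene was called there, and 0 in the other comparisons. Pdgfb between ATRXfl_G34R and p53_WT was 1.46 without the 2 libraries richest in cortex transcripts, p53_WT replicate 3 and ATRXfl_G34R replicate 3, against 0.89 with them.

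DESeq2 called 34 genes in ATRXfl_G34R minus ATRXfl_WT, 12 in p53_G34R minus p53_WT, 113 in ATRXfl_G34R minus p53_G34R, 74 in ATRXfl_WT minus p53_WT, 77 in ATRXfl_G34R minus p53_WT, 10 in the interaction, 107 for floxed minus intact and 12 for H3.3G34R minus H3.3WT, where limma called 0, 0, 4, 6, 4, 0, 17 and 0. The cause was not tested. The 4 calls between ATRXfl_G34R and p53_G34R became 12 without a filter and 0 with edgeR, with libraries of one title code summed, or without the 2 cortex-rich libraries. The 6 calls between ATRXfl_WT and p53_WT and the 4 between ATRXfl_G34R and p53_WT became 2 each with edgeR or summed libraries, and the last also 2 at a pseudocount of 0.5. Leaving out 1 library gave 0 to 5, 2 to 8 and 2 to 8 calls in these 3 comparisons and 10 to 25 for floxed minus intact.

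The r of 0.79 between Pdgfa and Pdgfra was 0.11 without the cortex-rich libraries, -0.19 (reversed) over 12 libraries after summing by title code, which joins p53_WT replicates 3 and 4, and 0.0555 to 0.871 with each library left out, the lowest being without p53_WT replicate 3. Depth limits Pdgfd, at 13 to 264 reads per library.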
